A study of Mus musculus with 6 samples.

Results

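C-type lectin receptors and *Card9*, the adaptor gene of the activating ones, were examined in PB neutrophils of mice with ligature-induced periodontitis (LIP). They were chosen by gene name as 8 genes, *Clec4a2*, *Clec4d*, *Clec4e*, *Clec4n*, *Clec5a*, *Clec7a*, *Clec2d* and *Card9*, out of 29097 genes listed, and all 8 were among the 10440 genes whose FPKM averaged 1 or more and which were tested. FPKM is the number of fragments scaled to the length of a gene and to the size of a library. C57BL/6 male mice, 8 weeks old, carried silk ligatures on the second molars of both jaws and both sides for 14 d (LIP, labelled Lig) or were left without ligatures (Ctrl). CD45+CD11b+Ly6G+ cells were sorted from blood, and 3 libraries per group were made by Smart-seq2, each from the neutrophils of 5 pooled mice. Smart-seq2 amplifies full-length cDNA by PCR without molecular identifiers, so reads are not independent molecules. Between 52186555 and 57262379 reads were counted per library.

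C-type lectin receptors are surface proteins of myeloid cells that bind glycans and glycolipids of fungi and mycobacteria, and some of them bind material from dying cells. The activating receptors recruit the kinase Syk, either through a short tyrosine motif of their own or through an adaptor chain, and Syk signals through PKCδ to a complex of CARD9, BCL10 and MALT1 that switches on NF-κB and inflammatory cytokine genes. Receptors with an inhibitory motif recruit phosphatases that oppose this pathway. In neutrophils, these receptors are known for fungal recognition, the oxidative burst and cytokine release.

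*Clec4a2*, *Clec4n*, *Clec4d* and *Clec4e* lie in this order on chromosome 6 (GRCm38), at chr6:123106428-123143999, chr6:123229843-123247021, chr6:123262111-123275265 and chr6:123281789-123289870. Only 6524 bases separate *Clec4d* on the plus strand from *Clec4e* on the minus strand, whose ends face each other. *Clec2d* at chr6:129180615-129186534 and *Clec7a* at chr6:129461591-129472779 lie further along the same chromosome, *Clec5a* lies at chr6:40574894-40585821, and *Card9* lies on chromosome 2 at chr2:26352176-26359747. The RefSeq promoter table (GRCm38.p6) held 7 of the 8 genes and lacked *Clec4n*. The 250 bases before the start were searched on both strands for 3 motifs, GAGGAAG (PU.1, a myeloid lineage factor), TTGCNNAA (C/EBP, a factor family of granulocyte development) and the ISRE of interferon response (GAAA, any 2 bases, GAAA), and these do not overlap one another in the windows shown. The windows of the neighbours *Clec4d* and *Clec4e* and of *Clec2d* are printed because each held 1 match to a different motif and because *Clec2d* was the only one of the 8 genes that did not pass the test below. Capitals mark the match.

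*Clec4d* (chr6:123261857-123262106, plus strand): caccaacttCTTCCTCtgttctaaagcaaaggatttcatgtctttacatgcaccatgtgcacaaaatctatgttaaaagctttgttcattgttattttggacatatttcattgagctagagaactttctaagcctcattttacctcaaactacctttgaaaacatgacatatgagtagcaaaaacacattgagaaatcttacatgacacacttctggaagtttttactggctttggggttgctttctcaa
*Clec4e* (chr6:123289872-123290121, minus strand): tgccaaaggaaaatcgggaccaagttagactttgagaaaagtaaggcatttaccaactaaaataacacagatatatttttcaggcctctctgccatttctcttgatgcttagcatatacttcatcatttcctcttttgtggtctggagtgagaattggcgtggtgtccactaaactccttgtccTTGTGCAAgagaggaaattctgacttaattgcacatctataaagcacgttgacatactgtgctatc
*Clec2d* (chr6:129180365-129180614, plus strand): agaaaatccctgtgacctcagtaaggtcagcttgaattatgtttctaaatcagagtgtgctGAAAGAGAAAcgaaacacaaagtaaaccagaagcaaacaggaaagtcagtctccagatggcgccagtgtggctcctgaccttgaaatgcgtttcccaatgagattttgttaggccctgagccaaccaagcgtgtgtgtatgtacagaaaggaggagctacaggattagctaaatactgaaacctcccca

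The *Clec4d* match read GAGGAAG on the reverse strand, 241 to 235 bases before the start. The *Clec4e* match to the C/EBP letters stood 66 to 59 bases before the start, and the *Clec2d* match to the ISRE letters stood 189 to 180 bases before it. *Clec5a* held 2 matches to the PU.1 letters, and no match was found in *Clec4a2*, *Clec7a* and *Card9*. The *Clec4a2* window (chr6:123122440-123122689) lies inside the gene span given above and overlaps 2 exons, so the bases before that span were not searched. Of 32851 promoters of the same length, 10.6% held the PU.1 letters, 9.56% the C/EBP letters and 2.98% the ISRE letters, so single matches of the first 2 kinds are common.

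When scaled by TMM, which sets the libraries to one level through the bulk of their genes, 7 of the 8 genes passed the test. Each of the 7 had higher values in the LIP libraries, and *Clec2d* did not pass. These directions turned when libraries were scaled on neutrophil marker genes. There, 0 of the 8 were higher and 6 were lower, beside 0.345% and 90.7% of all genes tested. The 6 include *Clec2d*, and *Clec4e* and *Card9* did not pass there. Under TMM the 7 genes rose 2.43- to 3.68-fold. *Clec4e*, the gene of Mincle, rose most there, and *Clec4a2*, the gene of an inhibitory receptor, rose least of the 7. Among all genes tested, 26.5% passed as higher and 27.2% as lower (edgeR's quasi-likelihood test, Benjamini-Hochberg adjusted p under 0.05), so the count of 7 stands against a background in which 53.6% of genes changed. The median log2 fold change of the 8 genes was 1.54, beside -0.09 over all genes tested, and 6.66% of all genes reached 1.5. None of the 8 was lower at an unadjusted p under 0.05 in edgeR either, nor at an adjusted p in DESeq2 or limma. The libraries of the groups did not overlap for 7 of the 8 genes, which was also true of 63.4% of all genes, and of 30.3% with the higher values in LIP.

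**Figure D1:**
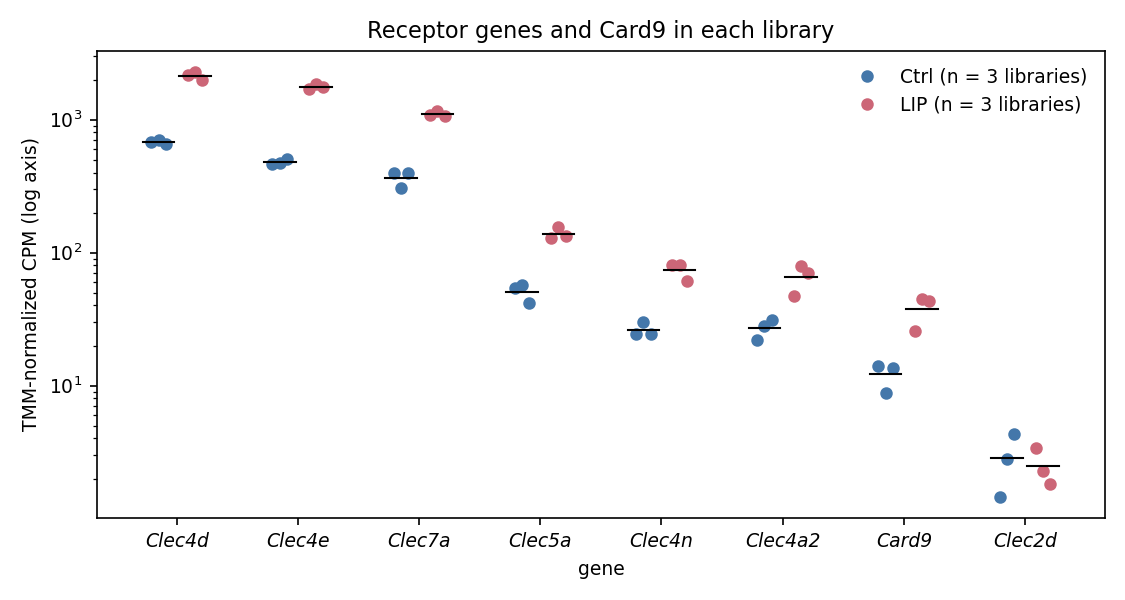
CPM (reads scaled to library size by TMM, log axis) of the 8 genes in each of the 3 Ctrl and 3 LIP libraries, each point a library and each bar a group mean. With this scaling *Clec4d* and *Clec4e* reached 2136 and 1771 CPM in LIP, *Clec2d* stayed below 5 CPM and its groups overlapped, while scaling on neutrophil marker genes turned the direction of the other 7.

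*Clec4d* encodes MCL, a receptor that partners Mincle in binding mycobacterial glycolipid. In CPM, which gives the reads of a gene as a share of its library after TMM scaling, *Clec4d* was at 673, 700.8 and 651 in the Ctrl libraries and 2156, 2280 and 1973 in the LIP libraries. All 3 LIP libraries were far above all 3 Ctrl libraries, and the means were 675 ± 24.8 and 2136 ± 154 (SD, n = 3 each). The log2 fold change was 1.66 with an SE of 0.08 (edgeR adjusted p = 2.21e-07). By FPKM, *Clec4d* was the most abundant of the 8 genes, with a mean of 430 in Ctrl and 1100 in LIP, which placed it 99th and 46th among the genes tested.

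*Clec4e* encodes Mincle, which recognises mycobacterial glycolipid and the nuclear protein SAP130 of dying cells. Its CPM was 460, 474 and 509 in the Ctrl libraries and 1711, 1840 and 1760 in the LIP libraries. The groups were again well separated, with means of 481 ± 24.9 and 1771 ± 65.0 (SD, n = 3 each). Its log2 fold change of 1.88 (SE 0.08, edgeR adjusted p = 1.03e-07) ranked 268th of the 10440 genes tested.

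*Clec4n* encodes Dectin-2, which binds mannan of fungal cell walls. Its CPM was 24.5, 29.9 and 24.2 in Ctrl and 80.0, 81.2 and 60.8 in LIP. The lowest LIP library was above the highest Ctrl library, and the log2 fold change was 1.50 (SE 0.17, edgeR adjusted p = 3.44e-05). Thus *Clec4n* was read at a small share of the level of its neighbours *Clec4d* and *Clec4e* on the CPM scale, while its log2 fold change was close to that of *Clec4d*.

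*Clec7a* encodes Dectin-1, the β-glucan receptor, which carries its own tyrosine motif and needs no adaptor chain. Its CPM was 396, 303 and 398 in Ctrl and 1078, 1164 and 1058 in LIP. The second Ctrl library was lower than the other two, and no Ctrl library came near the LIP libraries. The log2 fold change was 1.59 (SE 0.12, edgeR adjusted p = 1.88e-06).

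*Clec5a* encodes MDL-1, a receptor that signals through the chains DAP12 and DAP10 and is known for its role in neutrophil and macrophage responses to viruses and bacteria. Its CPM was 54.4, 56.9 and 41.4 in Ctrl and 128, 155 and 133 in LIP. The groups did not overlap, and the log2 fold change was 1.44 (SE 0.15, edgeR adjusted p = 2.15e-05).

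*Clec4a2* encodes DCIR, an inhibitory receptor whose cytoplasmic motif recruits the phosphatases SHP-1 and SHP-2. Its CPM was 21.9, 28.1 and 31.0 in Ctrl and 47.4, 78.8 and 70.6 in LIP. The first LIP library was the lowest of its group and still above every Ctrl library. The log2 fold change was 1.28 (SE 0.21, edgeR adjusted p = 0.000542). Of the 75-base stretches of its transcripts, 4.03% also occur in *Clec4a4* or *Clec4b1*, so its count is uncertain to an extent that this value does not measure for longer read pairs, while the other 7 genes share no such stretch with another gene.

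*Clec2d* encodes Clr-b, which on many cells engages the inhibitory NK cell receptor NKR-P1B. Its counts were 87, 166 and 251 reads in the Ctrl libraries and 168, 115 and 85 reads in the LIP libraries. This corresponded to 1.46, 2.80 and 4.35 CPM in Ctrl and to 3.38, 2.28 and 1.82 CPM in LIP. The groups overlapped fully, and the Ctrl libraries differed among themselves by more than the group means did. The log2 fold change was -0.20 with a 95% interval of -1.27 to 0.86 (edgeR adjusted p = 0.741), an interval that holds changes in both directions. Without the third Ctrl library the log2 fold change was 0.23.

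*Card9* encodes the adaptor on which the activating receptors converge. Its CPM was 14.0, 8.75 and 13.6 in Ctrl and 25.9, 44.6 and 43.1 in LIP. The first LIP library was well below the other two, and the groups did not overlap. The log2 fold change was 1.64 (SE 0.27, edgeR adjusted p = 0.000518). An antisense gene, *Gm13562*, overlaps *Card9*, and since the use of strand in counting is not given in the sources used here, their reads cannot be told apart with certainty, although *Gm13562* itself was listed at a mean FPKM of 0.328 in Ctrl and 0.139 in LIP.

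The order of the levels per length was the same in both groups for the abundant genes. By mean FPKM in Ctrl, *Clec4d* (430) was followed by *Clec7a* (142), *Clec4e* (98.7), *Clec4n* (18.8), *Clec5a* (13.5), *Clec4a2* (9.38), *Card9* (5.39) and *Clec2d* (2.40). In LIP the means were 1100, 343, 294, 42.9, 29.7, 18.5, 13.6 and 1.68 in the same order, and only *Clec4a2* and *Card9* overlapped between neighbours, with libraries from 13.3 to 22.2 and from 9.25 to 16.1. The place of *Clec4e* depended on the length used, because the deposited FPKM divides by all annotated exon bases, 4965 for *Clec4e* with its retained introns, and its longest coding transcript has 2518 bases. Per kilobase of the longest coding transcript and scaled to library size, *Clec4e* stood at 211 in Ctrl and 622 in LIP and lay above *Clec7a*, at 178 and 427.

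The ratio of reads of 2 genes within a library is the same under every scaling. It can still change with the mix of cells in a library, and this was not tested. Between groups, 13 such ratios, chosen after the values were seen, were compared by 2-sided exact permutation tests. With 3 libraries against 3 these cannot give a p below 0.1. *Clec4e* gave 68.4, 67.7 and 78.1 reads per 100 reads of *Clec4d* in Ctrl and 79.4, 80.7 and 89.2 in LIP. The ratios did not overlap between groups (exact permutation p = 0.1, adjusted over the 13 ratios 0.186), but the highest Ctrl library and the lowest LIP library were close. *Clec7a* gave 54.4 ± 9.70 reads per 100 reads of *Clec4d* in Ctrl and 51.5 ± 1.84 in LIP (exact permutation p = 0.9, mean ± SD of 3 libraries), and these overlapped. *Clec4n* gave 3.88 ± 0.339 and 3.45 ± 0.329 reads per 100 reads of *Clec4d* (SD, n = 3 each, exact permutation p = 0.2), and these overlapped too.

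Of all genes tested, 26.5% were higher under TMM and 90.7% were lower when scaled on neutrophil marker genes. The adaptor chains of the receptors were higher in LIP as well under TMM and lower when scaled on neutrophil marker genes, 3 of 3 in each case. They were *Fcer1g*, the FcRγ chain of Mincle and Dectin-2 (log2 fold change 1.52), *Tyrobp*, which encodes DAP12 (1.52), and *Hcst*, which encodes DAP10 (0.81). *Clec4d* gave 106 ± 11.5 reads per 100 reads of *Fcer1g* in Ctrl and 116 ± 6.19 in LIP (exact permutation p = 0.3, mean ± SD of 3 libraries). *Clec5a* gave 5.54 ± 1.00 and 5.24 ± 0.398 reads per 100 reads of *Tyrobp* (SD, n = 3 each, exact permutation p = 0.8). *Clec4n* gave 4.09 ± 0.333 and 4.01 ± 0.555 reads per 100 reads of *Fcer1g* (mean ± SD of 3 libraries, exact permutation p = 0.8). All of these pairs overlapped between groups. *Clec4e* gave 75.4 ± 7.66 reads per 100 reads of *Fcer1g* in Ctrl and 96.1 ± 3.01 in LIP, and *Clec5a* gave 91.5 ± 15.4 and 143 ± 19.7 reads per 100 reads of *Hcst* (SD, n = 3 each). Neither of these pairs overlapped (exact permutation p = 0.1 each, adjusted over the 13 ratios 0.186).

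Downstream of the receptors, 27 of 30 listed signalling genes were tested. Under TMM 12 were higher and 15 did not pass the test, with a median log2 fold change of 0.18, beside 26.5% of all genes higher. When scaled on neutrophil marker genes 26 were lower, beside 90.7% of all genes. None of the signalling genes was lower at an adjusted p under TMM in edgeR, and 2 were lower there at an unadjusted p under 0.05. With their own scalings, DESeq2 called 0 lower, and limma on log2(FPKM + 1) called 4 lower. The highest was *Fgr*, a Src family kinase of myeloid cells (1.83). *Syk* itself had a log2 fold change of 0.73 (edgeR adjusted p = 0.00072). Of the complex that contains CARD9, *Bcl10* was higher under TMM (0.97) and *Malt1*, which encodes the paracaspase, stood at -0.42 without passing the test (edgeR adjusted p = 0.0657). *Plcg2*, a phospholipase activated by Syk, stood at 0.18 (edgeR adjusted p = 0.499). The 4 listed phosphatases, which act against these kinases or set their activity, gave 2 higher genes under TMM, *Ptprc* (1.18) and *Ptpn6* (0.51), and 2 that did not pass. With library totals 1 of them was higher, and all 4 were lower when scaled on neutrophil marker genes.

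*Clec7a* gave 114, 122 and 132 reads per 100 reads of *Syk* in Ctrl and 202, 248 and 219 in LIP. *Card9* gave 12.4, 11.4 and 12.3 reads per 100 reads of *Malt1* in Ctrl and 29.2, 62.6 and 67.2 in LIP, and it gave 4.03 ± 0.493 and 7.75 ± 2.52 reads per 100 reads of *Syk* (SD, n = 3 each). *Clec4a2* gave 4.29 ± 0.682 reads per 100 reads of *Ptpn6*, which encodes SHP-1, in Ctrl and 7.28 ± 1.73 in LIP (mean ± SD of 3 libraries). None of these 4 pairs overlapped between groups, each at the smallest exact permutation p of 0.1. *Card9* gave 8.71, 6.06 and 9.73 reads per 100 reads of *Bcl10* in Ctrl and 8.49, 15.2 and 15.9 in LIP, and these overlapped (exact permutation p = 0.3, adjusted over the 13 ratios 0.39). The rise of *Card9* over *Malt1* was uneven, with the first LIP library at less than any other of its group. Mean summed FPKM of B cell markers in LIP was 0.163 times that in Ctrl, and that of T cell markers 0.200 times. The part of this change in the ratios was not tested.

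**Figure D2:**
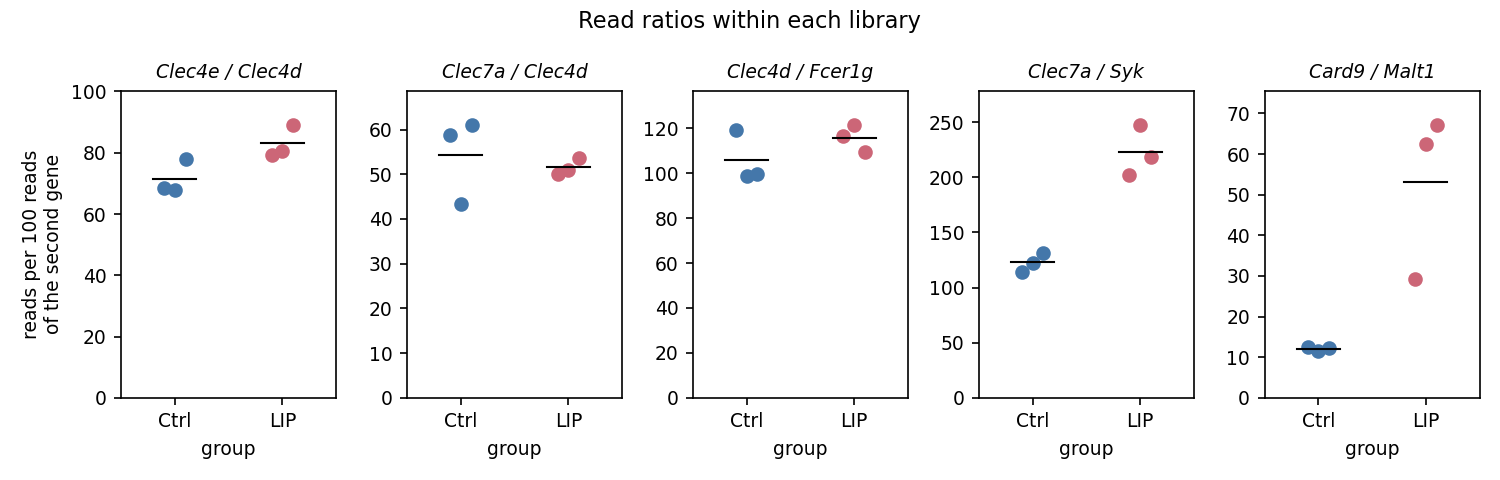
Reads of the first gene per 100 reads of the second within each library (linear axes from 0, each panel with its own scale), with 3 Ctrl and 3 LIP libraries as points and group means as bars. *Clec7a* over *Clec4d* and *Clec4d* over *Fcer1g* overlapped between groups. *Clec7a* over *Syk* moved from a mean of 123 to 223 and *Card9* over *Malt1* from 12.0 to 53.0. None of these ratios depends on the scaling, but they can change with the mix of cells, which was not tested.

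Of 17 listed cytokine, chemokine and enzyme genes that are known targets of the pathway, 14 were tested. Under TMM 10 were higher and 4 did not pass, while 8 were lower when scaled on neutrophil marker genes. Of all genes tested, 26.5% were higher under TMM and 90.7% were lower under the other scaling. The median log2 fold change of the 14 target genes under TMM was 1.20. The highest were *Ptgs2*, the inducible cyclooxygenase (2.01), *Il1b* (1.90) and the neutrophil chemoattractant *Cxcl1* (1.82). *Il6* was at 1.58 FPKM in Ctrl and 1.33 FPKM in LIP, and *Il10* at 2.84 and 2.57 FPKM, and neither passed the test. Of the other C-type lectin genes listed in the table, 10 of 26 reached the level to be tested. Under TMM 8 were higher, 1 lower and 1 did not pass, with a median of 1.15, beside 26.5% of all genes higher. When scaled on neutrophil marker genes, where 90.7% of all genes were lower, 6 of the 10 lectin genes were lower. Among those with a mean FPKM of 5 or more, *Cd209a*, known from dendritic cells (1.49), *Olr1*, the receptor for oxidised LDL (1.37), and *Clec1b*, the podoplanin receptor of platelets (1.19), were highest under TMM, and *Clec2i*, a relative of *Clec2d*, was lower (-1.21).

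**Figure D3:**
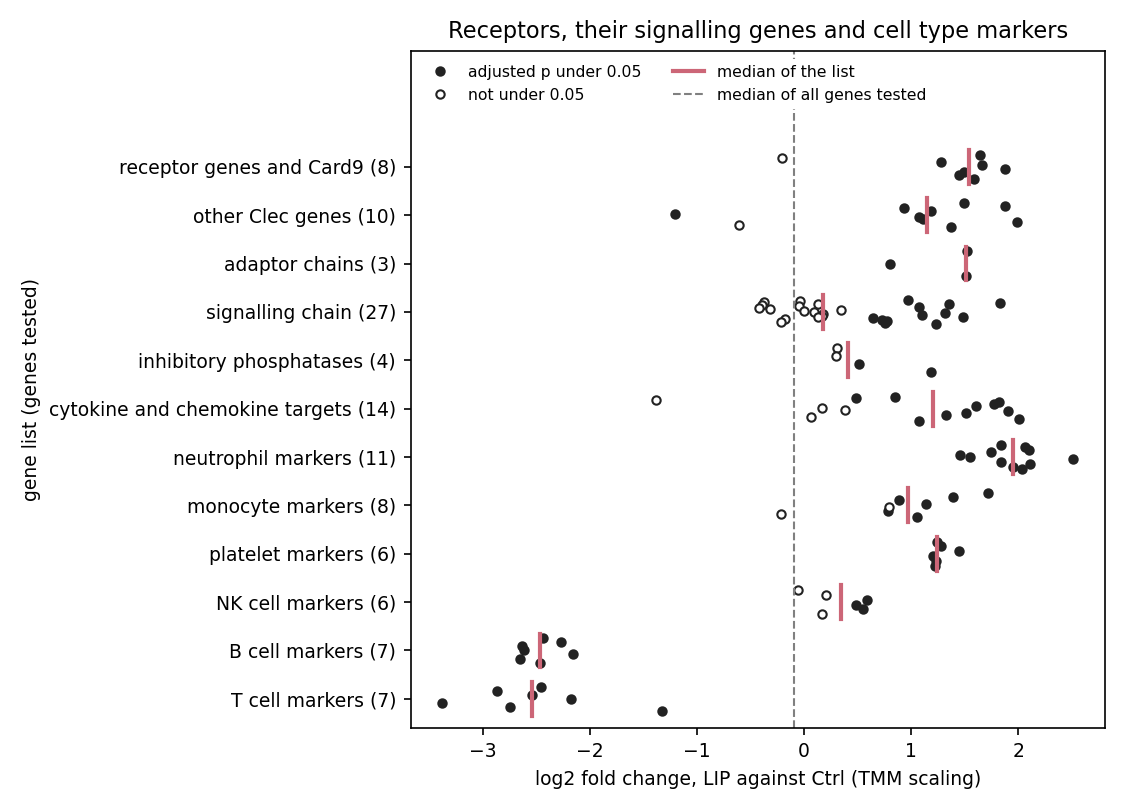
Log2 fold changes of LIP against Ctrl (TMM scaling) for the 8 genes, their signalling and target genes and markers of cell types, with filled points for an adjusted p under 0.05, a bar at each list's median and a dashed line at the median of all genes tested. The 8 genes have a median of 1.54, neutrophil markers of 1.95 and B cell markers of -2.47. Every direction here is relative to TMM. Under scaling on neutrophil marker genes 6 of the 8 genes were lower, beside 90.7% of all genes tested.

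Markers of other blood cells moved between the same libraries. All 11 neutrophil markers were higher in LIP under TMM, with summed FPKM of 14697 to 17909 in Ctrl and 51285 to 55909 in LIP, and their median log2 fold change of 1.95 was above the value of each of the 8 genes, with *Clec4e* at 1.88 the nearest. All 7 B cell markers (median -2.47, summed FPKM 10188 to 11159 in Ctrl and 1721 to 1735 in LIP), all 7 T cell markers (median -2.54, summed FPKM 137 to 163 and 25.2 to 33.6) and all 7 erythroid markers (median -3.01) were lower. The erythroid markers had the highest summed FPKM of the marker lists in Ctrl, 180632 to 186836, and 19478 to 20186 in LIP. Of 8 monocyte markers, 6 were higher and 2 did not pass, with a median of 0.97 and summed FPKM of 215 to 235 in Ctrl and 302 to 333 in LIP, and all 6 platelet markers were higher (median 1.24, summed FPKM 768 to 1027 and 1654 to 1924). Of 7 dendritic cell markers, 2 were tested, *Cd209a* and *Clec10a*, and both were higher. Both are also among the other C-type lectin genes counted above, and *Clec10a* was low, at 0.592 FPKM in Ctrl and 1.78 FPKM in LIP. *Flt3*, *Clec9a*, *Zbtb46*, *Xcr1* and *Siglech* were below 1 FPKM. Of 6 NK cell markers 3 were higher under TMM and 0 with library totals, and their summed FPKM was 214 to 262 in Ctrl and 219 to 238 in LIP. Of 4 tested eosinophil and basophil markers 1 was higher under TMM, where 26.5% of all genes were higher. The part of these cells in the results for the 8 genes was not tested, and in bulk libraries fewer cells of a type and less RNA per cell cannot be told apart.

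The direction for the receptors therefore holds relative to a reference. The median of all genes tested was -0.09 under TMM, -0.42 with library totals and -2.03 with scaling on the neutrophil markers. With library totals 7 of the 8 genes were still higher, beside 18.2% of all genes higher and 40% lower. Under the last scaling the log2 fold changes were -0.06 for *Clec4e*, -0.28 for *Clec4d*, -0.29 for *Card9*, -0.35 for *Clec7a*, -0.45 for *Clec4n*, -0.50 for *Clec5a*, -0.66 for *Clec4a2* and -2.13 for *Clec2d*. *Clec4e* (edgeR adjusted p = 0.53) and *Card9* (edgeR adjusted p = 0.32) did not pass there, and the other 6 genes were lower, as were 90.7% of all genes tested, while 0.345% were higher. The 7 genes that rose under TMM lay above the median of all genes and *Clec2d* lay below it, and since a scaling moves all genes and their median together, the 3 scalings give this position as a single observation.

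**Figure D4:**
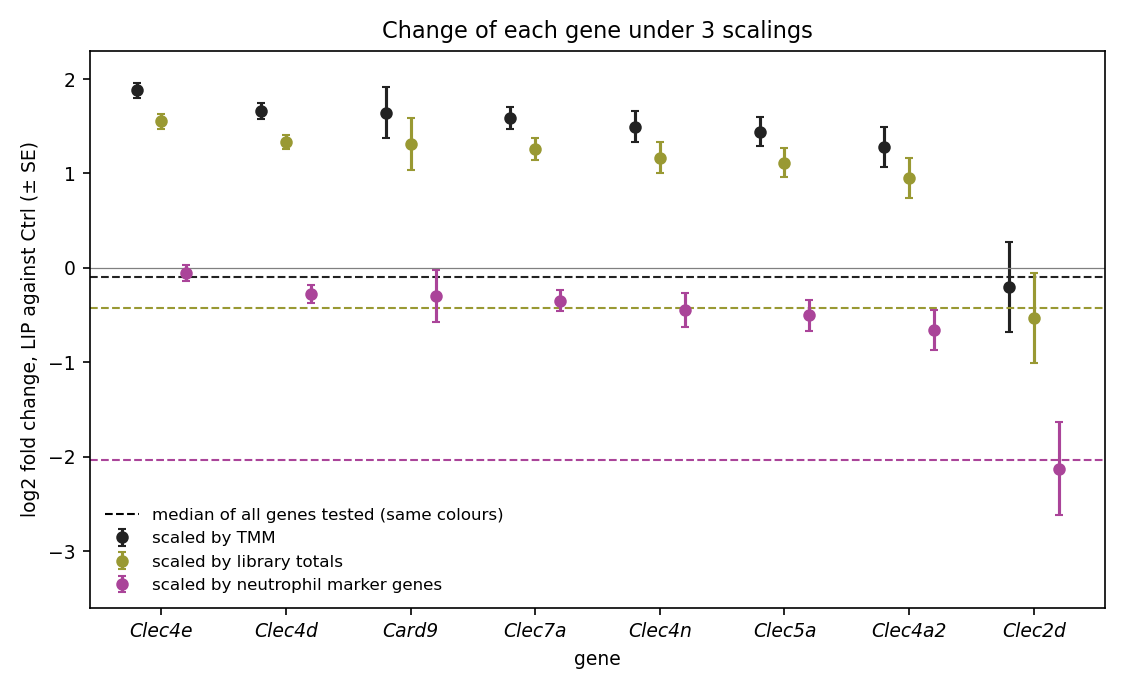
Log2 fold change of LIP against Ctrl with its SE (edgeR) for each gene under scaling by TMM, by library totals and by neutrophil marker genes, with dashed lines at the median of all genes tested in the same colours. Directions turn between scalings, with *Clec4e* at 1.88 under TMM and -0.06 under scaling on neutrophil markers, and 7 of the 8 genes lie above the dashed line of their own colour.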

How the data were processed

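The data were 6 Smart-seq2 libraries of sorted PB neutrophils, 3 Ctrl and 3 LIP, grouped by the labels. One table deposited by the authors holds raw counts of reads for each gene and FPKM values, with GRCm38 coordinates. The submitters' processing notes name cutadapt 1.9 and FastQC. The aligner, the counting tool and the use of strand are not given in the sources used here. From the values, FPKM was found to be divided by the length of all exons of a gene. Genes whose FPKM averaged 1 or more were tested on the counts in edgeR 4.0.16 under R 4.3.3 by the quasi-likelihood test after TMM scaling, without a replicate block, with p-values adjusted by the Benjamini-Hochberg method over the 10440 genes tested. The fit was tested on simulated data. Alternatives were limma 3.58.1 on log2(FPKM + 1), DESeq2 1.42.0, other scalings, filters and leaving out each library. The gene list, its cell type markers and the genes named (the 8 genes, from each list the 3 most changed genes in each direction that passed the test with a mean FPKM of 5 or more, any measured adaptor or ligand, and the 3 genes of nearest pattern) were chosen with earlier results of these data known. *Syk*, *Bcl10*, *Malt1*, *Plcg2*, *Il6*, *Il10*, *Clec10a*, *Flt3*, *Clec9a*, *Zbtb46*, *Xcr1* and *Siglech* fall outside that rule. Like the read ratios, they were chosen after their values were seen. Not every gene that the rule selects is reported here. Libraries were compared for duplicates, and chi-square per gene within groups was 39.1 to 77.0, above sampling noise. Intervals cover the spread between libraries, and counting error is smaller at these depths.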

Additional observations from a re-analysis of the deposited data

How the results depend on the processing

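Scaling on neutrophil marker genes, which were higher in LIP under TMM, called 36 genes higher and 9467 lower, against 2766 and 2835 under TMM. It called 0 of the 8 genes higher and 6 lower, and turned the direction of *Clec4a2* (-0.66), *Clec4d* (-0.28), *Clec4e* (-0.058), *Clec4n* (-0.45), *Clec5a* (-0.50), *Clec7a* (-0.35) and *Card9* (-0.29), and *Clec2d* (-2.13) passed as lower there. It also called 0 higher and 3 lower adaptor chains, 0 and 26 signalling genes and 0 and 4 phosphatases. For other C-type lectin genes it called 0 and 6, for targets 0 and 8, and for ligand and *Klrb1* family genes 0 and 7. With library totals the split of all genes was 1898 higher and 4179 lower, 6 signalling genes and 2 other C-type lectin genes were lower, and 1 phosphatase was higher. With limma and a pseudocount of 1 the split was 2010 and 4249, and 4 signalling genes and 2 other C-type lectin genes were lower. Requiring a mean FPKM of at least 5 left 5328 genes to test, of which 1761 were higher, and *Clec2d* was then not tested. DESeq2 called 2989 higher and 2817 lower. Leaving out 1 library at a time gave 2419 to 2615 genes higher and 2255 to 2770 lower, with 7 to 7 of the 8 genes higher and 0 to 0 lower. *Clec2d* ranged from -0.51 to 0.23 in these runs, the last without Ctrl replicate 3. Apart from the neutrophil scaling, the 7 genes that rose stayed higher and past the threshold under every alternative run. By the length of the longest coding transcript in place of the deposited FPKM, an alternative added after seeing the data, *Clec4e* stood at 1.19 times *Clec7a* in Ctrl and 1.46 times in LIP, against 0.698 and 0.855. Deviations of same-numbered libraries correlated at 0.021, 0.056 and 0.036, and those of differently numbered libraries at -0.050 to 0.022. The pools were of different mice, so the numbers do not pair the mice. These values cannot decide whether same-numbered libraries shared a batch. With a replicate block 2724 genes were higher and 2822 lower, and 7 of the 8 genes were higher.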

Other observations

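A list of ligand and *Klrb1* family genes held 7 genes, all tested. Of the *Klrb1* family, only *Klrb1b* is named here as a counter-receptor gene. Under TMM 3 were higher and 4 did not pass, with a median log2 fold change of 0.60, beside 26.5% of all genes higher. When scaled on neutrophil marker genes 7 were lower, beside 90.7% of all genes. *Anxa1*, which encodes annexin A1, a ligand of Dectin-1 on dying cells, was at 221 FPKM in Ctrl and 542 FPKM in LIP (log2 fold change 1.60). *Vim*, which encodes vimentin, stood at 0.78, and *Klrb1c*, the NK1.1 gene and also one of the NK cell markers, at 0.59. *Sap130*, which encodes the nuclear protein bound by Mincle, stood at -0.28 (edgeR adjusted p = 0.34), and *Klrb1b*, the receptor gene for Clr-b, at 0.72 (edgeR adjusted p = 0.0957).

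Patterns over the 6 libraries were compared among 3387 genes by log2 values centred on each gene's own mean, so levels did not count. The genes of nearest pattern to *Clec4e* were *I830077J02Rik* (root mean square difference 0.0487), *Ifitm6* (0.055) and the cytokine gene *Osm* (0.0576). For *Clec2d* they were *Gm11175* (0.177), *Prdx3* (0.200) and *Morf4l1-ps1* (0.211). The distances for *Clec2d* were larger than those for *Clec4e*, and its counts were lower.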
